A study of Homo sapiens with 6 samples.

Results

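Wnt signalling was described here through 41 genes, listed by name as ligands, receptors, inhibitors, intracellular transducers and transcriptional targets of the pathway. All probe sets carrying exactly 1 of these symbols in the platform annotation were taken, and a gene was read at its probe set with the highest mean log2 signal over the 6 arrays. Of the 41 genes, 39 had such a probe set (92 probe sets, of 54613 on the array), and WNT3 and TCF7 were not analysed here. The comparison tested the brighter 50% of probe sets, which kept 34 of the 39 genes and 61 of their 92 probe sets. WNT11, SFRP2, SFRP5, NKD1 and SP5 lay below that limit.

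RNA of Flp-In T-REx 293 cells was hybridised to 6 one-colour Affymetrix expression arrays. These cells descend from HEK293, an established line of human embryonic kidney, and accept a transgene at one genomic site. Every culture held a stable, inducible GFP transgene that was not switched on. In one group siRNAs against TET1, TET2 and TET3 were given together, in the other a non-targeting siRNA pool, and RNA was taken 96 h later in both. Each group held the same 3 clones, called clone 1, 2 and 3, so every clone had 1 knockdown array and 1 control array. In the main fit, which pairs the arrays by clone, p-values measure how the knockdown difference varies among these clones of 1 line. They do not measure the spread of signal between clones. The TET proteins are enzymes that oxidise the methyl group of 5-methylcytosine, and the question is which transcripts change once all 3 are depleted.

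A Wnt ligand binds a Frizzled receptor and its co-receptor LRP5 or LRP6, and this draws Dishevelled and Axin to the membrane. Without ligand, Axin, APC and the kinase GSK3 hold β-catenin in a complex that marks it for destruction. With ligand, β-catenin escapes, enters the nucleus and activates genes through TCF and LEF factors, and several of those targets encode feedback inhibitors of the pathway. Secreted inhibitors such as the SFRP, DKK and WIF1 proteins are well known for promoter methylation and silencing in tumours.

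All 3 siRNA targets were lower in the knockdown, and the arrays resembled each other closely. TET1 signal was 448 to 685 in the knockdown and 3073 to 3470 in the control, which left 17.9% of the control level. TET2 was at 46.8% and TET3 at 42.9% of control, each lower in 3 of 3 clones (limma adjusted p over all probe sets 0.000194, 0.0335 and 0.0196 for TET1, TET2 and TET3). The calls of TET2 and TET3 were lost without the clone term (limma adjusted p 0.327 and 0.1) and without clone 3 (0.261 and 0.146). That of TET2 was also lost without clone 1 (0.0539) or clone 2 (0.0501). Without the variance trend and robust step none of the 3 passed (0.739, 0.74 and 0.74 for TET1, TET2 and TET3). All 3 stayed lower in each of these fits. Log2 signal correlated at 0.972 to 0.986 between arrays, and the trimmed mean signal was 1000 on each. All 9 measured genes of a HEK293 list, among them VIM, KRT18 and PAX2, were bright enough to test, while 3 of 14 markers of other cell types were (COL1A1, LUM and PECAM1). The markers that define leukocytes, hepatocytes and muscle (PTPRC, CD3E, CD14, ALB, MYH2 and CKM) lay below the limit, and the summed signal of the other-cell list was 1750 to 1966 in the knockdown and 1630 to 2217 in the control.

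At the level of the pathway the differences were small, and most of those seen in every clone were upward. Of 34 tested members, 24 had a positive and 10 a negative difference of knockdown minus control. Over all tested genes, 6397 were positive and 5921 negative. The members' values lay between -0.41 (NOTUM) and 0.37 (FZD6) on the log2 scale. The median was 0.098, beside 0.007 over all 12318 tested genes, and by clone it was 0.11, 0.11 and 0.026 in clones 1, 2 and 3. Without the control array of clone 1, in the fit with no clone term, the members' median was 0.03. In all 3 clones 14 members (41.2%) were higher, beside 19.9% of all tested genes, and 5 were lower, beside 18% of all. The other 15 had mixed signs. Members were chosen with earlier results of these data known, so the median and these shares are a description and not a test. Only 1 member, FZD6, passed an adjusted p of 0.05 in limma with the clone as a term, where 1.32% of all tested genes passed, and no member passed without the clone term, where 0.0162% of all genes did. At an unadjusted p under 0.05, 6 members were higher, beside 8.61% of all genes, and none was lower, beside 7.53% of all. These arrays hold RNA from whole cultures, in which fewer cells with a transcript and less of it per cell cannot be told apart.

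**Figure D1:**
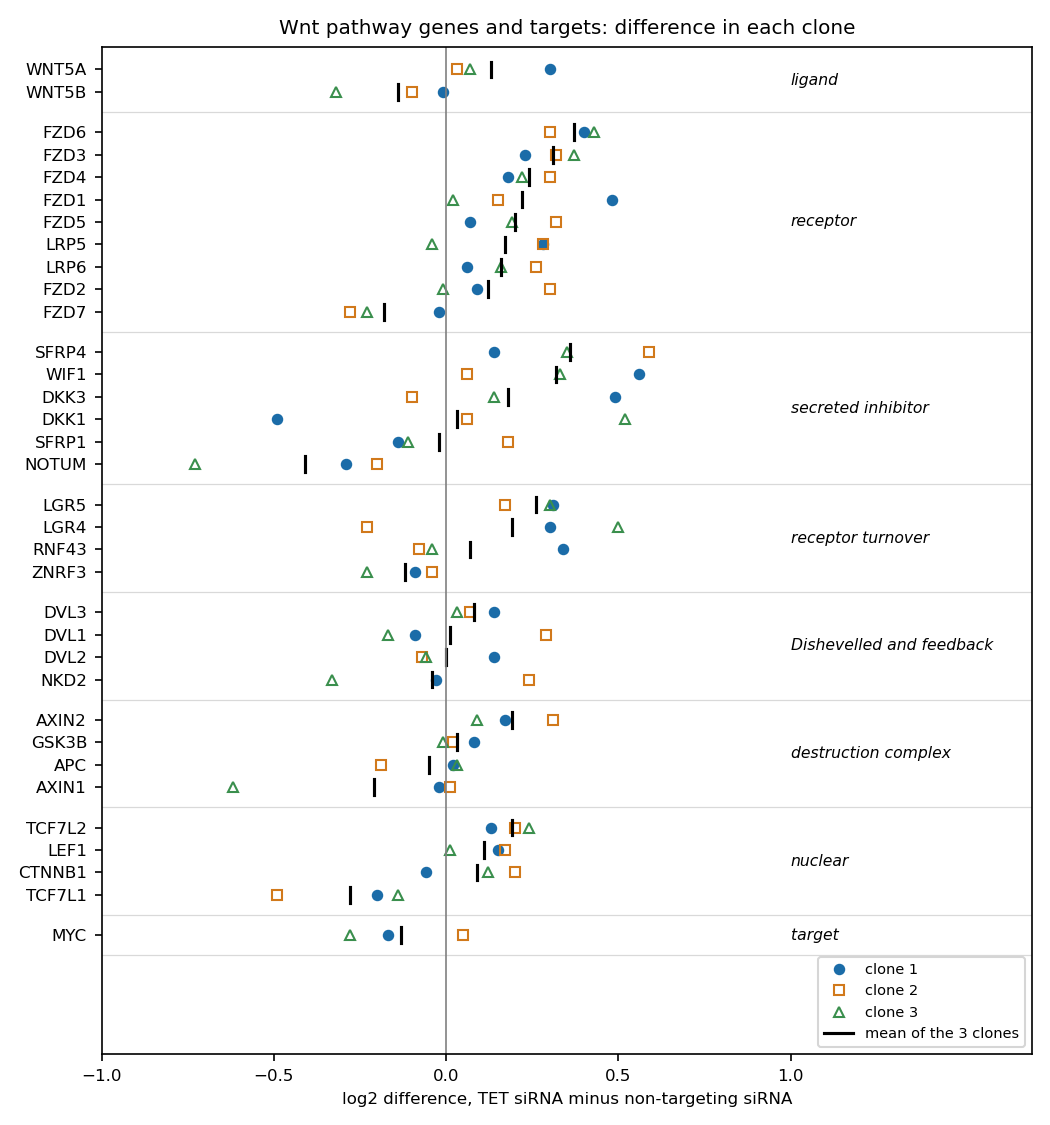
Log2 difference of TET siRNA minus non-targeting siRNA (horizontal axis) for the 34 tested members, grouped by role, with a point for each of the 3 clones and a black bar at their mean. FZD6 and FZD3 lie right of 0 in every clone, while DKK1 and AXIN1 spread widely, with DKK1 at -0.49 in clone 1 and 0.52 in clone 3.

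The Frizzled receptors, the seven-pass membrane proteins that bind Wnt ligands, mostly had small positive differences. Of 7 tested Frizzled genes, 6 had a positive difference, 5 of them in all 3 clones (71.4% of the 7, beside 19.9% of all tested genes). FZD7 was negative in all 3, and the median over the 7 genes was 0.22. FZD6 (Entrez gene 8323), a receptor known for planar cell polarity in skin and hair, had signals of 4393, 3136 and 3471 in the knockdown of clones 1, 2 and 3 and 3333, 2555 and 2582 in their controls. Clone 1 was highest in both groups, so the groups overlapped, yet each knockdown array lay above the control of its own clone. FZD6 rose by 0.37 on the log2 scale (SE 0.08, 95% interval 0.21 to 0.54, 1.3-fold; limma adjusted p = 0.0447), from 2823 ± 441 to 3667 ± 651 (SD, n = 3 each). This call lay close to the threshold and was lost without the clone term (adjusted p = 0.738), with no limit on brightness (0.177), after quantile normalization (0.0512), without the variance trend and robust step (0.325), without clone 1 (0.185) and without clone 3 (0.36). Without clone 2 it held at 0.41 (adjusted p = 0.0108), and over all 17 alternatives the adjusted p ran from 0.0108 to 1 while the difference stayed between 0.24 and 0.50.

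FZD3 (Entrez gene 7976), a receptor with a known part in axon guidance, showed a like difference at each of its 4 tested probe sets. At the brightest, signals were 3983, 4412 and 4367 in the knockdown and 3395, 3542 and 3374 in the control, with no overlap between the groups. The difference was 0.31 (SE 0.07, 95% interval 0.15 to 0.47), which did not pass (adjusted p = 0.0768). The other 3 probe sets gave 0.18, 0.35 and 0.31, with adjusted p-values of 0.297, 0.0927 and 0.139, and at all 4 every knockdown array exceeded every control array. These probe sets read 1 transcript on the same arrays and are not independent of each other.

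FZD5 (Entrez gene 7855) also separated the groups, at 3284, 3441 and 3523 in the knockdown and 3122, 2753 and 3083 in the control. Its difference was 0.20 (SE 0.08, 95% interval 0.02 to 0.37, limma adjusted p = 0.284), and it was smallest in clone 1 (0.07). This probe set carries a suffix that marks possible cross-hybridisation. The other FZD5 probe set lacks it but lay below the brightness limit, at -0.20, with 0.78, 0.09 and -1.46 in clones 1, 2 and 3. FZD1 (Entrez gene 8321) had 1141, 1041 and 925 against 818, 938 and 911, a difference of 0.22 (SE 0.12) to which clone 1 contributed 0.48 and clone 3 only 0.02. For FZD4, the receptor of the ligand norrin in retinal vessels, the signals were 455, 632 and 667 against 401, 512 and 572, with 0.24 (SE 0.14). FZD1 and FZD4 overlapped between the groups and did not pass (adjusted p = 0.454 and 0.469). FZD2 differed by 0.12 (adjusted p = 0.661) and was not higher in clone 3.

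FZD7 (Entrez gene 8324), a Frizzled of stem and progenitor cells, was the only negative one of the 9 tested receptors among the members. Of 9 tested receptors outside the member list, 6 were positive and 3 negative, among them ROR1 and ROR2, with a median of 0.074. It had 1755, 2059 and 1984 in the knockdown and 1775, 2506 and 2326 in the control, a difference of -0.18 (SE 0.09, 95% interval -0.37 to 0.02; adjusted p = 0.408). Its control arrays of clones 2 and 3 stood above all others, while both arrays of clone 1 were nearly equal. The dimmer FZD7 probe set gave -0.26 (adjusted p = 0.279), with 1096, 1162 and 1176 against 1218, 1543 and 1356 and no overlap.

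Promoters of 3 Frizzled genes that were higher in every clone are shown for their density of CpG, the dinucleotide in which cytosine is methylated and on which TET enzymes act. FZD6 and FZD3, also higher in every clone, had no promoter available, and none of the 3 genes shown passed the test. Each window runs from 250 bases before to 50 bases after the annotated start in RefSeq (GRCh38.p14), 5′ to 3′ on the gene's strand, with each CpG in capitals:
FZD1, chr7:91264183-91264482, strand +: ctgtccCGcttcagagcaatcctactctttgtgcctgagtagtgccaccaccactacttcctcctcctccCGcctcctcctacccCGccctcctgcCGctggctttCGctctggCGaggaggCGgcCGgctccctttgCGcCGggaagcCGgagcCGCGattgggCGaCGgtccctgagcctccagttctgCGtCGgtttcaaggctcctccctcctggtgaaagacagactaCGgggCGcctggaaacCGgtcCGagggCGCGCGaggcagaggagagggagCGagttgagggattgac
FZD4, chr11:86955346-86955645, strand -: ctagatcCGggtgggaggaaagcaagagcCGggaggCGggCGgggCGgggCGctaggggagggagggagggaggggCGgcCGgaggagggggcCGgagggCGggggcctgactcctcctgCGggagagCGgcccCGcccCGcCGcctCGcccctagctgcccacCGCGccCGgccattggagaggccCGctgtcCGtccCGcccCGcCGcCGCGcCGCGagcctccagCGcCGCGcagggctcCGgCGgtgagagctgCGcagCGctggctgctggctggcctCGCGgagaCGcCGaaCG
FZD5, chr2:207769857-207770156, strand -: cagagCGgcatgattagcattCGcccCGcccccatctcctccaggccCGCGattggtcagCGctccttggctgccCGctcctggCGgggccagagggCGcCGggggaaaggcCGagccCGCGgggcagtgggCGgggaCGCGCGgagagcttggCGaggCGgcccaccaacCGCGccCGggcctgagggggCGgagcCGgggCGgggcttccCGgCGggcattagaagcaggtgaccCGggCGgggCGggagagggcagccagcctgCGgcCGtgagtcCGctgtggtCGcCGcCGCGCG
These windows hold 25, 40 and 38 CpG, beside a median of 14 over the 35116 promoters of 300 bases in the table. Over 31 promoters of the 25 members in that table the median was 23 (0 to 58). It was 24 over 12 promoters of tested members higher in all 3 clones and 25 over the 16 promoters of the other tested members. Methylation was not measured on these arrays.

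The co-receptor LRP6 (Entrez gene 4040), which is phosphorylated when Wnt binds and then recruits Axin, had 4583, 5445 and 5333 in the knockdown and 4405, 4538 and 4783 in the control. Clone 1 knockdown fell among the controls, so the groups overlapped. The difference was 0.16 (SE 0.07, 95% interval 0.00 to 0.32; adjusted p = 0.345), and the other 2 tested probe sets gave 0.33 and 0.16. The related LRP5 was dim, with 110, 181 and 140 against 91.1, 148 and 143, and its difference of 0.17 had an interval of -0.46 to 0.81.

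**Figure D2:**
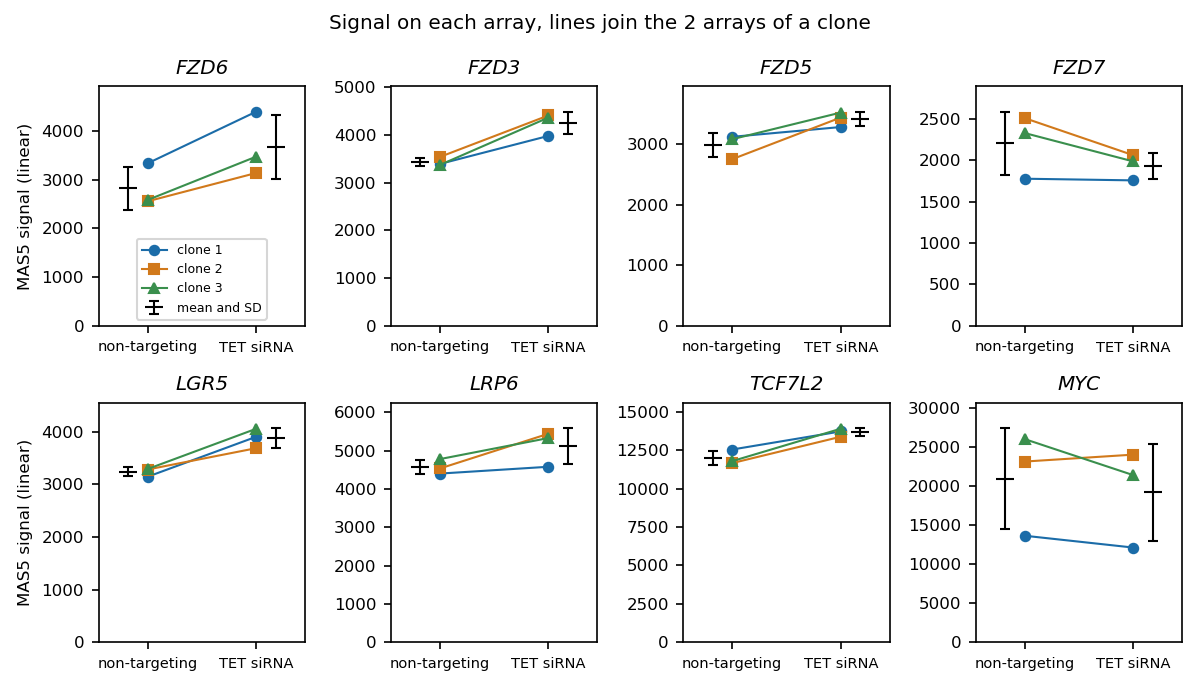
MAS5 signal on a linear axis from 0 for 8 members, each array a point, the 2 arrays of a clone joined by a line, with mean and SD of each group (n = 3) beside them. Lines of FZD6 and FZD3 climb in each clone, those of FZD7 fall or stay level, and MYC in clone 1 lies far below the other clones in both groups.

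Among genes that set how many receptors stay on the membrane, LGR5 was the most regular. LGR5 (Entrez gene 8549), a receptor of the R-spondins and a stem cell marker in the gut, had 3900, 3684 and 4052 in the knockdown and 3142, 3279 and 3288 in the control. The groups did not overlap, and the control arrays were close to each other. Its difference was 0.26 (SE 0.07, 95% interval 0.10 to 0.42, 1.2-fold), which did not pass (adjusted p = 0.132). The dimmer LGR5 probe set gave 0.69 (SE 0.21; adjusted p = 0.149), with 264, 337 and 469 against 220, 183 and 244, again without overlap.

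LGR4, the other R-spondin receptor on the list, differed by 0.19 (adjusted p = 0.553), but its clones disagreed. Its signals were 3753, 2409 and 2762 against 3056, 2817 and 1954, so clone 2 was lower and clones 1 and 3 higher. Without clone 2 LGR4 passed at 0.40 (adjusted p = 0.0228), which made 2 members called there in place of 1; over all tested genes the share called rose too, from 1.32% to 3.08%. RNF43 and ZNRF3, the ubiquitin ligases that remove Frizzled from the membrane and are themselves Wnt targets, differed by 0.07 (95% interval -0.23 to 0.38) and -0.12 (-0.32 to 0.08).

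WNT5A (Entrez gene 7474), a ligand of the β-catenin-independent branch, was higher at both of its probe sets, neither past the threshold. At the brighter it had 5799, 4787 and 4841 in the knockdown and 4713, 4680 and 4609 in the control, a difference of 0.13 (SE 0.08; adjusted p = 0.463). Most of this came from clone 1 (0.30, beside 0.03 and 0.07 in clones 2 and 3). The dimmer probe set, which lacks the suffix of possible cross-hybridisation, had 3890, 3751 and 3909 against 2869, 3553 and 2806 and a difference of 0.33 (adjusted p = 0.118). Neither probe set overlapped between the groups. WNT5B, its close relative, differed by -0.14 (95% interval -0.45 to 0.17; adjusted p = 0.706) and was lower in every clone. WNT11 lay below the brightness limit, at 40.4, 97.8 and 157 against 48, 240 and 164.

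The secreted inhibitors gave no call, and their clones scattered more. DKK1, DKK3, SFRP4 and NOTUM were dim, with group means from 128 (NOTUM, knockdown) to 279 (DKK3, knockdown), where the brightness limit was 117. WIF1 (Entrez gene 11197), which binds Wnt ligands outside the cell, had 645, 401 and 439 in the knockdown and 436, 385 and 351 in the control. It was higher in each clone, but clone 2 knockdown lay below clone 1 control, and the difference of 0.32 (SE 0.16, 95% interval -0.03 to 0.67) did not pass (adjusted p = 0.4). SFRP4, a secreted decoy related to Frizzled, had 164, 254 and 205 against 149, 169 and 160, a difference of 0.36 (95% interval -0.17 to 0.89; adjusted p = 0.549). SFRP1, of the same family, had -0.02 (95% interval -0.22 to 0.17) at its brightest probe set. DKK1, the LRP6 antagonist, differed by 0.03 with an interval of -0.55 to 0.61, as its clones ran from -0.49 to 0.52. DKK3 had 0.18 at 1 of its 2 tested probe sets and 0.32 at the other, of 6 probe sets in all. NOTUM, a secreted enzyme that strips the lipid from Wnt proteins and is itself a Wnt target, was the most negative of the tested members. Its signals were 104, 164 and 117 against 127, 189 and 194, and the difference of -0.41 had an interval of -1.02 to 0.20 (adjusted p = 0.554).

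Below the limit, SFRP2 had signals of 6.09, 12.8 and 7.26 in the knockdown and 16.9, 43.5 and 11.7 in the control, and SFRP5 43.8, 27.7 and 48.1 against 62, 14.5 and 71. When all probe sets were tested their adjusted p-values were 0.674 and 0.993. Signals this dim vary by several-fold between arrays of 1 group, and no detection call was used.

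Inside the cell, no Dishevelled, feedback or destruction complex gene passed the test. DVL3 (Entrez gene 1857), one of the Dishevelled adaptors, had 1356, 1422 and 1328 in the knockdown and 1232, 1352 and 1302 in the control, a difference of 0.08 (95% interval -0.13 to 0.29; adjusted p = 0.77). DVL1 differed by 0.01 (-0.21 to 0.23) and DVL2 by 0.00 (-0.17 to 0.18). NKD2, a Dishevelled-binding feedback inhibitor, had -0.04 (-0.34 to 0.25). The related NKD1 lay below the limit at 24.4, 22.9 and 51.9 against 65.9, 57.4 and 53.2; these groups did not overlap, and its adjusted p was 0.719 when all probe sets were tested.

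GSK3B, the kinase that phosphorylates β-catenin, differed by 0.03 (95% interval -0.15 to 0.21), and APC, the scaffold lost in many colon tumours, by -0.05 (-0.22 to 0.12). AXIN1, the limiting scaffold of the complex, had -0.21 (-0.66 to 0.24), which came from clone 3 (-0.62) alone. AXIN2 (Entrez gene 8313), the relative of AXIN1 that β-catenin itself induces and a common readout of the pathway, had 876, 1146 and 1035 against 776, 926 and 971. It was higher in every clone, with overlap between the groups, and its difference of 0.19 (SE 0.11, 95% interval -0.05 to 0.43) did not pass (adjusted p = 0.47). Its other 3 probe sets lay below the limit.

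Of the nuclear genes, TCF7L2 had the smallest p. TCF7L2 (Entrez gene 6934), the main TCF factor of the intestine, had 13716, 13370 and 13891 in the knockdown and 12538, 11656 and 11783 in the control, with no overlap. The difference was 0.19 (SE 0.07, 95% interval 0.04 to 0.33), which did not pass (adjusted p = 0.22). Its other 5 tested probe sets, all with the suffix of possible cross-hybridisation, ran from -0.22 to 0.18. β-catenin itself, CTNNB1, differed by 0.09 (95% interval -0.08 to 0.25; adjusted p = 0.658) at the brightest probe set, and by 0.28 and -0.17 at the others. LEF1 had 0.11 (-0.06 to 0.28) and TCF7L1, mostly a repressor, -0.28 (-0.73 to 0.17).

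**Figure D3:**
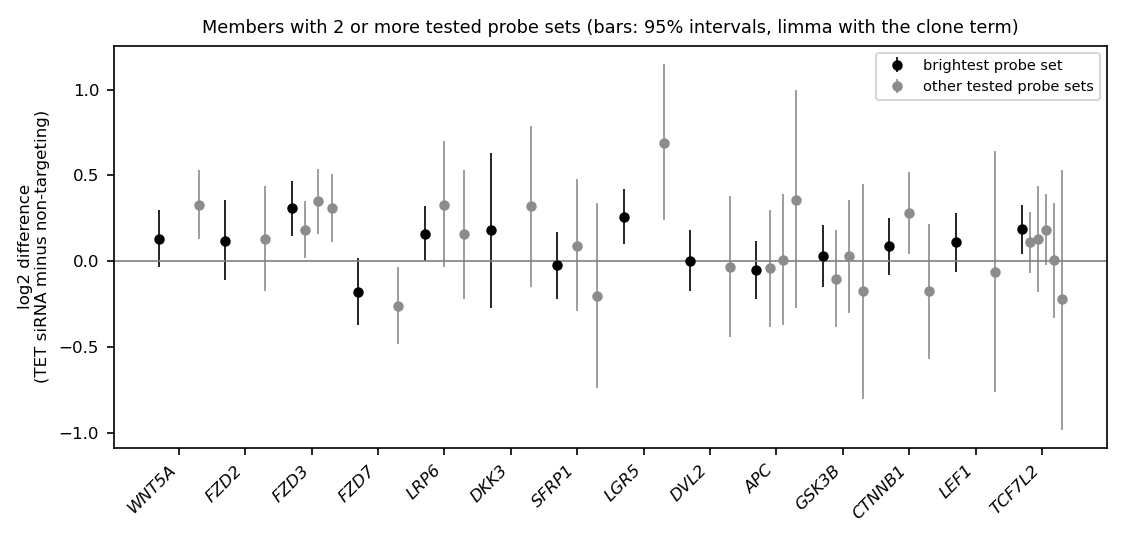
Log2 difference with its 95% interval (limma with the clone term) at every tested probe set of the 14 members that had 2 or more, the brightest in black. All 4 probe sets of FZD3 and both of LGR5 lie above 0 with intervals that leave out 0, and those of CTNNB1, APC and GSK3B lie on both sides of 0.

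Among the 14 members with 2 or more tested probe sets, 7 had 1 sign at all of them (WNT5A, FZD2, FZD3, FZD7, LRP6, DKK3 and LGR5) and 7 had both signs. Over all members, 5 of 34 separated the groups fully at the brightest probe set (WNT5A, FZD3, FZD5, LGR5 and TCF7L2), each of them higher. That is 14.7%, beside 13.2% of all tested genes, so the share in either direction was near the background. Of the 1623 genes behind that 13.2%, 834 were higher.

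MYC had the widest range between clones of the tested members. MYC (Entrez gene 4609), the proto-oncogene that β-catenin induces in the gut, had 12129, 24008 and 21393 in the knockdown and 13641, 23123 and 26000 in the control. Both arrays of clone 1 stood far below the other 4, a 1.83-fold range between clone means. The knockdown difference was -0.13 (SE 0.08, 95% interval -0.31 to 0.04, limma adjusted p = 0.489). It stayed negative with clone 1, 2 or 3 left out whole (-0.11, -0.23 and -0.06). Without the knockdown array of clone 1 or the control array of clone 3, in fits with no clone term, it was 0.17 and 0.05. Those fits hold unequal clones in the 2 groups, so the range between clones enters the difference. SP5, a transcription factor induced directly by Wnt, lay below the limit, at 116, 65.4 and 33.8 against 108, 16.2 and 133. Its promoter was the only one of the 31 with the TCF and LEF core CTTTGAT on either strand. That is 3.23%, beside 2.62% of all promoters in the table, so the share was near the background. No other form of the core was searched for. MYC, AXIN2, LGR5, NOTUM, NKD1 and ZNRF3 had no promoter available and were not searched. The core stands in capitals in this stretch, 109 bases before the start to which the window is set:
SP5, chr2:170715216-170715245, strand +: agagccgctattCTTTGATgattgggtagc

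Clone means of the members spread over a median range of 0.34 on the log2 scale, beside 0.25 over all tested genes. That range exceeded the size of the knockdown difference for 29 of 34 tested members (85.3%), beside 77.4% of all tested genes, so a larger clone range was usual on these arrays. Clone 1 had the lowest mean for 20 members (58.8%, beside 46.6% of all genes) and the highest for 8 (23.5%, beside 36.4%). After MYC, the widest ranges belonged to LRP5 (0.71), AXIN1 (0.66) and SFRP1 (0.65), and narrow ones to LGR5 and TCF7L2 (0.07 each) and GSK3B (0.05). As to size, the 95% interval left out a change of 1 on the log2 scale in either direction for 33 of 34 members and a change of 0.5 for 24. These intervals depend on the fit with the clone term. Without that term the SE of MYC was 0.29 in place of 0.08, while that of DKK1 was 0.25 in place of 0.27.

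Another 117 genes of the pathway were listed by role, of which 110 had a probe set and 84 were tested. One of the 84 passed, as lower, and none as higher, beside 1.32% of all tested genes. At an unadjusted p under 0.05, 8 were higher and 10 lower, beside 8.61% and 7.53% of all tested genes. The median was 0.029, beside 0.007 over all tested genes. In all 3 clones 23 (27.4%) were higher and 13 lower, beside 19.9% and 18% of all genes, and 13 (15.5%) separated the groups, beside 13.2%.

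CCND2, which encodes cyclin D2, a partner of CDK4 and CDK6 in G1 and a target of β-catenin or MYC in several tissues, was the gene that passed. Its signals were 9332, 10799 and 10757 in the knockdown and 14987, 15899 and 15553 in the control, far apart and with little spread in either group. CCND2 fell by 0.59 on the log2 scale (SE 0.07, 95% interval -0.74 to -0.44; adjusted p = 0.00279), 1.51-fold lower. The other 3 tested probe sets gave -0.57, -0.79 and -0.36 (adjusted p = 0.0768, 0.0508 and 0.51), each lower in 3 of 3 clones, and all 4 carry a suffix that marks possible cross-hybridisation. The call held without clone 1, 2 or 3 (adjusted p = 0.0274, 0.000216 and 0.0373), and was lost without the clone term (0.0832) and without the variance trend and robust step (0.32).

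The next genes by p did not pass. PPARD, a nuclear receptor for fatty acids proposed as a target in colon cells, had 888, 1037 and 1051 against 1089, 1729 and 1479, a difference of -0.51 (SE 0.11; adjusted p = 0.0611), while another tested probe set of it gave 0.26. NLK, a kinase that phosphorylates TCF and LEF factors, had 2380, 2440 and 2544 against 1996, 1969 and 2005, with 0.30 (SE 0.08; adjusted p = 0.118) and positive values at its other 2 probe sets. ZNF703, a transcriptional corepressor, had 7116, 6067 and 6228 against 6589, 4109 and 5184, with 0.31 (SE 0.09; adjusted p = 0.127). PPARD and NLK separated the groups and ZNF703 did not. Without clone 2, CTNNBIP1, an inhibitor of β-catenin binding to TCF, and TBL1X, a subunit of corepressor complexes, also passed as lower, at -0.69 and -0.36 (adjusted p = 0.0287 and 0.0334), which made 3 of the 84, in the fit that called 3.08% of all tested genes. With the probe sets of possible cross-hybridisation left out, CCND2 had none left, and the 1 gene called was CSNK1A1, a kinase that primes β-catenin for GSK3, as higher (0.34, adjusted p = 0.0274), beside 1.69% of all genes in that fit. The brightest probe set of CSNK1A1, which carries that suffix, gave 0.01 (adjusted p = 0.979).

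**Figure D4:**
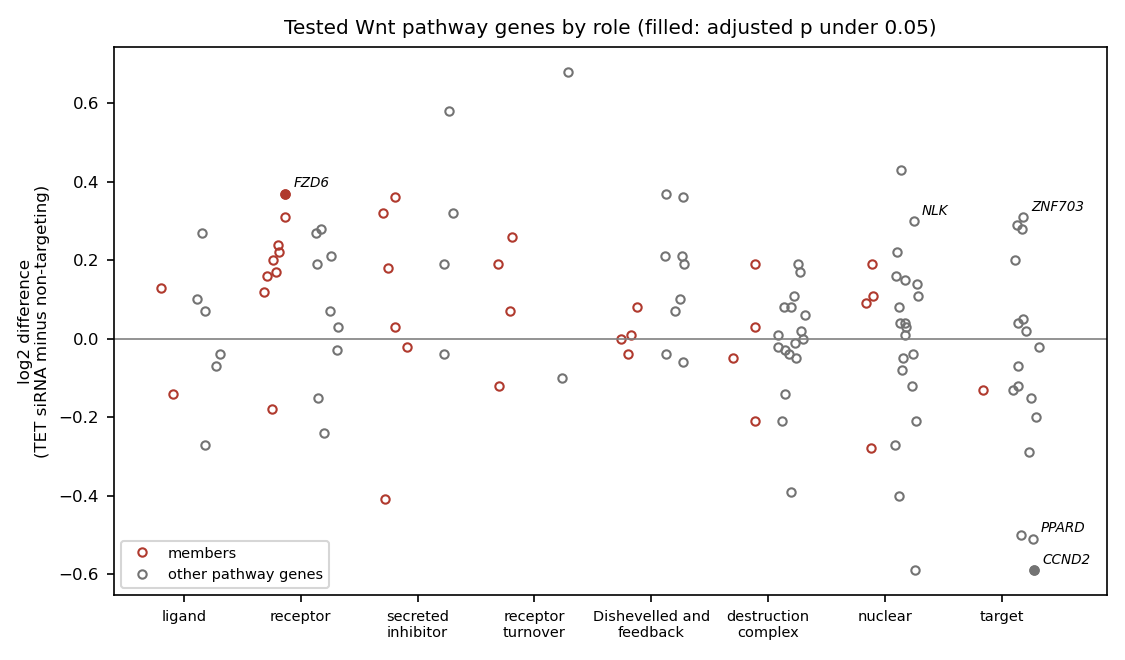
Log2 difference of TET siRNA minus non-targeting siRNA for the 34 tested members (red) and 84 other tested pathway genes (grey), in columns by role, with the genes past an adjusted p of 0.05 filled. Receptor members sit mostly above 0, up to FZD6 at 0.37, and the lowest filled point is CCND2 at -0.59 among the targets.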

How the data were processed

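The values were MAS5 signals, intensities on a linear scale per probe set and array, deposited by the authors as 1 table. The name MAS5 comes from the submitters' processing notes, which give no version. The deposited intensities were already scaled to a mean of 1000 on each array with the highest and lowest 2% of probe sets left out, so no further normalization was applied. MAS5 leaves dim probe sets noisy, and neither detection calls nor scanner files were used here.

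After 62 controls were removed, 54613 of 54675 probe sets remained. The platform annotation gave 41091 of the rest 1 gene, 1801 several and 11721 none; 41037 of these matched RefSeq genes of GRCh38.p14 by Entrez ID, a table used for names; promoter windows came from a separate RefSeq promoter table of that build. Tests used log2 signal and the brighter 50% of probe sets, 27306 with a geometric mean signal of at least 117. TET siRNA was compared with non-targeting siRNA in limma 3.58.1 (R 4.3.3), with the clone as a replicate block, trended and robust empirical Bayes moderation, two-sided, and Benjamini-Hochberg adjustment over all tested probe sets at 0.05; the 3 TET genes were read from the same fit over all probe sets. SE and 95% intervals come from that fit, and ± gives the SD over 3 arrays. The labels name the same clones in both groups, and deviations from the group means correlated at 0.493, 0.234 and 0.236 between the arrays of clones 1, 2 and 3, with up to 0.219 between arrays of different clones. The steps were tested on simulated data with planted differences and independent noise at the spread of the same fit. Such data cannot show whether the clone term or the variance trend suits these arrays.

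The members and the gene lists were chosen with earlier results of these data known. Per-array values are given for members that pass, for the 12 of smallest p and for the smallest p in each role, and for some others chosen after their values were seen. Of the other pathway genes, those that pass and the 2 of smallest p in each direction are named. Alternatives were no clone term, no brightness limit, the brightest 30%, a pseudocount of 36.1 (25th percentile of signal), quantile normalization, plain empirical Bayes, each clone or array left out, a threshold of 0.10, the mean of a gene's probe sets, and probe sets of possible cross-hybridisation left out. Plots were drawn with matplotlib 3.10.9.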

Additional observations from a re-analysis of the deposited data

How the results depend on the processing

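The counts of calls moved with the processing, while the named genes mostly kept their direction. The count of members called, 1 with the replicate block, was 0 without it, with no brightness limit, after quantile normalization or with plain empirical Bayes, 2 at an adjusted p of 0.10, and 0 to 2 with a clone or array left out. The count of other pathway genes called, also 1, was 0 without the replicate block or with plain empirical Bayes, 2 with the upper 30% or at 0.10, and 0 to 3 with a clone or array left out; it was 1 without probe sets of possible cross-hybridisation, but of CSNK1A1 in place of CCND2. Over all probe sets 282 were called, against 4 without the replicate block, 70 with no brightness limit, 0 with plain empirical Bayes (limma), 646 at 0.10, 63 to 684 with a clone left out and 2 to 4 with an array left out and no clone term. Of the 3 TET genes, 1 was called without the replicate block, 0 with plain empirical Bayes, 2 without clone 1 or 2 and 1 without clone 3. The members' median ran from 0.03 to 0.13 with a clone or array left out, and it stayed positive in all alternatives. Of 301 values of 18 named genes under these alternatives, 278 kept their direction and side of the threshold. Another 20 lost their call (12 of FZD6, 8 of CCND2), and PPARD gained one with the upper 30%. The remaining 2 changed sign, both of MYC. It was 0.17 without the knockdown array of clone 1 and 0.05 without the control array of clone 3, in a range of -0.41 to 0.17. Both of these fits had no clone term and unequal clones in the 2 groups. The number of arrays, 3 in each group, limits the precision, and the cause of the lost calls was not tested.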
